A study of Oryza sativa with 12 samples.

Results

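The genes described here lie on rice chromosome 3 between 27 and 30 Mb. They are the rows of the deposited expression table on chromosome 3 whose midpoint falls in that interval, 394 of the 40674 rows in all. The window was chosen because several of its genes differed between the 2 lines of the study at 28 °C, so the 28 °C difference between the lines chose it, and is given below as a description without a test. The study sequenced RNA of shoots (labelled aerial organs) from seedlings aged 12 days, grown from 2 near-isogenic rice lines. NIL-TT2HPS32 (HPS32 below) is labelled as loss of function for TT2, and NIL-TT2HJX (HJX below) as wild type. Seedlings raised at 28 °C were kept for 20 h at 42.5 °C or at 28 °C, which gave 4 groups of 3 libraries: HPS32 under heat, HJX under heat, HPS32 at 28 °C and HJX at 28 °C. The labels do not say how many seedlings entered a library or whether libraries came from separate cultures, so the p-values measure only the spread between these libraries, which may be technical. Each genotype is represented by 1 line, so an effect of TT2 and an effect of any other difference between the lines cannot be told apart.

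Near-isogenic lines are made by repeated backcrossing, so that they share most of their genome and differ at a selected locus and at whatever other donor stretches remained. A gene inside such a stretch can carry a different promoter, coding sequence or copy number in the 2 lines. The window holds no single pathway. Its genes include receptors with an NB-ARC domain, the nucleotide-binding domain of plant immune receptors, and several lipoxygenases, which add oxygen to unsaturated fatty acids and start the route to jasmonate and other oxylipins. It also holds KNOX homeobox genes, transcription factors known for keeping cells of the shoot meristem undifferentiated, and a DELLA gene, a repressor of gibberellin responses.

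Libraries held 14785975 to 17871972 reads assigned to genes, and no 2 libraries of a group agreed within sampling noise. The row taken as TT2 from general knowledge, Os03g0407400 with a G protein gamma domain, had 16 reads in HPS32 under heat, 8 in HJX under heat, 7 in HPS32 at 28 °C and 9 in HJX at 28 °C, summed over 3 libraries. It was too low to test and does not check the labels. The 22 rows with a chlorophyll a/b-binding domain, which mark green tissue, summed to 5080 to 6460 CPM (read counts scaled to a common library size) in HPS32 under heat and 1990 to 3220 CPM in HJX under heat. At 28 °C they summed to 81200 to 83400 CPM in HPS32 and 73000 to 91400 CPM in HJX. Green-tissue transcripts were thus present in all libraries as the label of aerial organs says. In bulk tissue, fewer cells of a type and less RNA per cell cannot be told apart.

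Of the 394 members, 359 had at least 1 read and 35 had none. The low-count filter kept 281 members (71.3%, against 62.6% of all rows), and 78 had reads but too few to test, with at most 75 reads over the 12 libraries. The members comprised 348 protein-coding genes, 24 nontranslating transcripts, 18 transcripts with identifiers outside the numbered gene series (unannotated below and named by their start, although 3 of them have a described domain) and 4 rows of other RNA types. A protein domain was given for 262 of them. Of the tested members, 64 overlapped another row, and the strand setting of the counting is not given in the sources used here, so a read from such a place may belong to either strand. The window took 1.28% ± 0.00592 of all assigned reads in HPS32 under heat and 1.33% ± 0.00762 in HJX under heat (SD, n = 3 each). It took 1.16% ± 0.0206 in HPS32 at 28 °C and 1.16% ± 0.0244 in HJX at 28 °C (SD, n = 3 each).

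The edges of the window fell between ordinary genes. The first gene inside, Os03g0680300 with ankyrin repeats, had 403 reads in HPS32 at 28 °C and 376 in HJX at 28 °C, a log2 fold change of 0.14. The last gene outside before it, Os03g0680200, had 558 and 507 reads in these groups, a log2 fold change of 0.17. At the far edge, Os03g0732200 inside the window had 1 read in HPS32 and 0 in HJX at 28 °C, and Os03g0732700 outside it had 51 reads in HPS32 and 34 in HJX at 28 °C.

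The highest level per gene length belonged to a tubulin gene, Os03g0726100, whose product is a building block of microtubules. It had 440 ± 11.2 CPM per kilobase in HPS32 under heat, 379 ± 14.2 in HJX under heat, 743 ± 67.3 in HPS32 at 28 °C and 712 ± 24.6 in HJX at 28 °C (SD, n = 3 each). In HJX under heat it ranked below 2 other members. Os03g0701200, which has no described domain, had 116 ± 6.15 CPM per kilobase in HPS32 under heat, where it ranked 7, and 726 ± 61 in HJX under heat, where it led (SD, n = 3 each). Os03g0726500, with a TauE/SafE sulfite-exporter domain found in membrane transport proteins, came after it in HJX under heat, with 139 ± 6.55 CPM per kilobase in HPS32 under heat and 390 ± 14 in HJX under heat (SD, n = 3 each).

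At 28 °C, 4 of the 281 tested members passed an adjusted p of 0.05 between the lines, 1.42% of them, against 0.0864% of all tested genes (22 of 25473). In HPS32 1 was higher and 3 were lower, against 0.0432% of all tested genes each way. Since these 28 °C differences chose the window, nothing is read from that share. Of the 22 genes, 7 lay on chromosome 3, the 4 members among them. The neighbouring stretches of 3 Mb on either side, and the 3 Mb around TT2, held no such gene among 195, 363 and 187 tested. Nothing is read from these counts either, since the window was chosen for its 28 °C differences. The median log2 fold change of the members was 0 at 28 °C, as over all genes. The number called was 2 without HJX 28 °C replicate 2, without HPS32 28 °C replicate 2 or without HPS32 28 °C replicate 3, and 2 when only the 28 °C libraries were fitted.

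The 4 genes were an NB-ARC gene, a dioxygenase gene, a gene of chromatin remodelling and a KNOX homeobox gene. Os03g0689400 (chromosome 3, 27517768 to 27521337) encodes an NB-ARC domain and was the only one of the 4 higher in HPS32. It had 12.5, 11.5 and 12.7 CPM in HPS32 at 28 °C, against 2.26, 0.588 and 2.39 CPM in HJX at 28 °C. All HPS32 libraries lay above all HJX libraries, a 7.10-fold difference (log2 2.83 ± 0.26, SE), which was not called when only the 28 °C libraries were fitted. A shorter NB-ARC row on the opposite strand, Os03g0689544, overlaps its end and had 13 reads in all.

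Os03g0690500 (27580909 to 27582211) carries the domains of 2-oxoglutarate-dependent dioxygenases, a large enzyme family of hormone and secondary metabolism. It had 5.71, 6.05 and 6.76 CPM in HPS32 at 28 °C, against 23.2, 27 and 28.5 CPM in HJX at 28 °C. The groups did not overlap and the difference was 4.24-fold (log2 -2.09 ± 0.13, SE). It lies close to the NB-ARC gene.

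Os03g0722100 (29299399 to 29302083) has a SWIRM-associated region, known from subunits of SWI/SNF chromatin remodelling complexes. It had 44.8, 48.3 and 48.4 CPM in HPS32 at 28 °C, against 62.8, 64.8 and 64.6 CPM in HJX at 28 °C. This was the smallest of the 4 differences, 1.36-fold (log2 -0.44 ± 0.08, SE). It was no longer called without HJX 28 °C replicate 2 or 3, without any 1 of the HPS32 28 °C replicates, without HPS32 heat library 1, or when only the 28 °C libraries were fitted.

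Os03g0727000 (29596367 to 29606861) is a homeobox gene with KNOX and ELK domains. It had 1, 0 and 0 reads in HPS32 at 28 °C, against 20, 32 and 20 reads in HJX at 28 °C. The ratio of the summed reads, scaled for depth, was 0.0142 with an exact 95% interval of 0.000355 to 0.0818 that covers counting error only. It was no longer called without HJX 28 °C replicate 2 or without HPS32 28 °C replicate 2 or 3. Under heat the gene was nearly silent in both lines, with 0, 3 and 0 reads in HPS32 and 1, 0 and 0 reads in HJX.

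**Figure D1:**
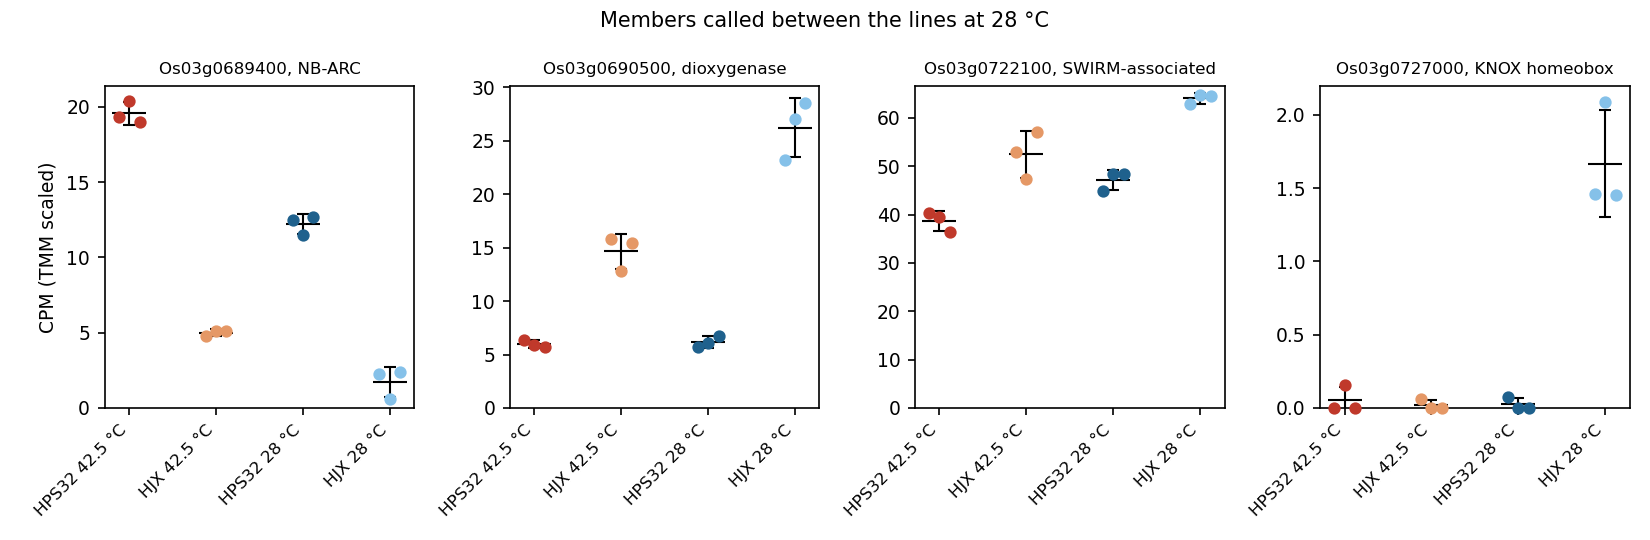
Levels of the 4 members called between the lines at 28 °C, in CPM scaled by TMM, for each library of HPS32 and HJX under heat (42.5 °C) and at 28 °C. Points are libraries, and bars give the mean ± SD of 3. The NB-ARC gene stands at 19.0 to 20.4 CPM in HPS32 under heat against 4.78 to 5.14 CPM in HJX under heat, while the KNOX gene is at or near 0 in every group but HJX at 28 °C.

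Whether these 4 differences recurred was asked in the heat-treated libraries, whose line difference did not choose the window. The heat libraries did enter the shared estimate of spread with which the 4 genes were called at 28 °C. The 2 comparisons are therefore not fully independent. With edgeR's quasi-likelihood test and Benjamini-Hochberg adjustment over all 25473 genes, 3 of the 4 were called in the same direction under heat. Of all genes called at 28 °C, 13 of 22 were called in the same direction under heat (59.1%), and outside the window 10 of 18 (55.6%). The NB-ARC gene Os03g0689400 had 19.3, 20.4 and 19.0 CPM in HPS32 under heat, against 4.78, 5.12 and 5.14 CPM in HJX under heat. Its log2 fold change there was 1.96 ± 0.21 (SE, edgeR adjusted p = 1.38e-06).

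The dioxygenase gene Os03g0690500 had 6.36, 5.86 and 5.67 CPM in HPS32 under heat, against 15.8, 12.8 and 15.4 CPM in HJX under heat. It was again lower in all HPS32 libraries, by a log2 fold change of -1.30 ± 0.13 (SE, edgeR adjusted p = 1.57e-07). The SWIRM-associated gene Os03g0722100 had 40.3, 39.6 and 36.4 CPM in HPS32 under heat, against 53.0, 47.3 and 57.1 CPM in HJX under heat. Its log2 fold change was -0.44 ± 0.08 (SE, edgeR adjusted p = 0.000124), the same size as at 28 °C. Scaled by total counts it was -0.18 with an adjusted p of 0.0758 in edgeR. The KNOX gene was not called under heat (edgeR adjusted p = 0.561), where 3 reads in HPS32 and 1 in HJX leave no difference detectable.

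KNOX genes were looked at together, since several are known as markers of the shoot meristem. The table holds 9 genes with a KNOX1 domain, of which 2 lie in the window. Apart from Os03g0727000 and a pair of abundant genes on chromosomes 2 and 6, the other 6 summed to 3 to 13 reads per library in HPS32 at 28 °C and 33 to 51 in HJX at 28 °C. The other window member, Os03g0727200, had 0, 0 and 0 reads in HPS32 at 28 °C and 5, 1 and 5 in HJX at 28 °C. Os07g0129700 on chromosome 7 had 0, 0 and 0 reads in HPS32 at 28 °C and 18, 31 and 4 in HJX at 28 °C.

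Of those 6 low genes, 3 were at 0 in HPS32 at 28 °C and 1 was at 0 in HJX at 28 °C. Under heat they summed to 21 to 25 reads per library in HPS32 and 12 to 32 in HJX, ranges that overlap. The pair of abundant genes, Os06g0646600 and Os02g0182800, had log2 fold changes of -0.06 and -0.03 at 28 °C and were not among the genes called. The low KNOX genes on other chromosomes, Os05g0129700, Os07g0129700 and Os01g0302500, had 20, 0 and 0 reads in HPS32 at 28 °C, against 55, 53 and 9 in HJX at 28 °C. Of the 6 low genes only Os05g0129700 was abundant enough to test, and it was not called at 28 °C. On chromosome 3 outside the window, Os03g0771500 had 2 reads in HPS32 and 5 in HJX at 28 °C, and Os03g0673500 had 1 and 0. These low counts are a description without a test. The part that the amount of meristem in each sample plays in the result was not tested.

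After 20 h at 42.5 °C the lines differed widely. Of the 281 tested members 142 were called between HPS32 and HJX under heat (50.5%, against 45.2% of all tested genes), 50 higher and 92 lower in HPS32. Over all genes 21.6% were higher and 23.6% lower. The median log2 fold change of the members was -0.11, against 0.03 over all tested genes. With a change of at least 2-fold as an added condition, 12 members were higher and 17 lower (10.3%, against 9.99% of all genes, 5.13% higher and 4.86% lower). The window was thus close to the rest of the genome in how often its genes differed under heat.

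The split of directions depended on the scaling. The scaling factors of the main fit (TMM) were 1.26 to 1.28 in HPS32 under heat and 1.06 to 1.07 in HJX under heat. Scaled by total counts alone, 97 members were higher and 52 lower in HPS32, and the median of all genes moved to 0.28, with that of the members at 0.15. Under both scalings the members' median lay below that of all genes. The scaling of the median ratio (RLE) gave 55 higher and 82 lower.

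**Figure D2:**
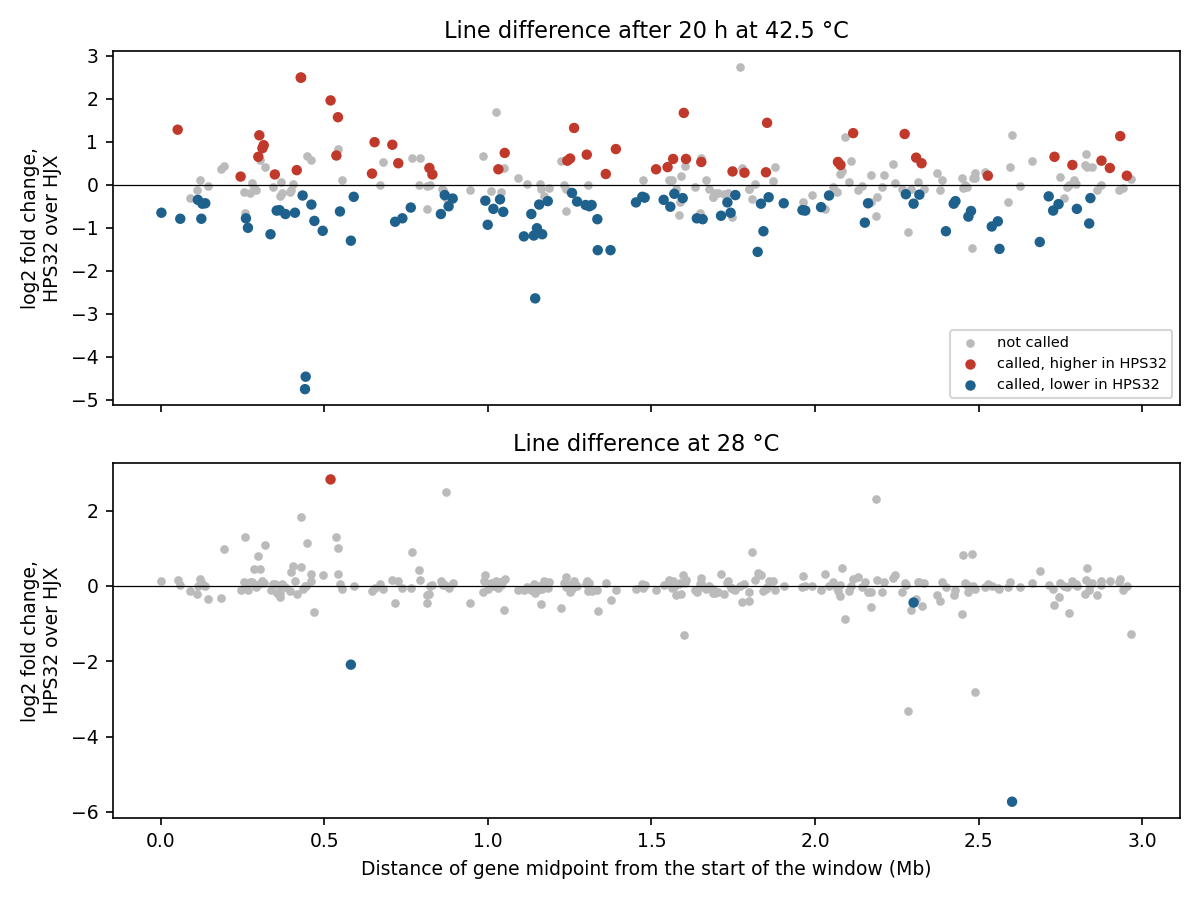
Log2 fold change of HPS32 over HJX for the 281 tested members, against the distance of the gene's midpoint from the start of the window in Mb. The upper panel is under heat and the lower at 28 °C, and coloured points passed an adjusted p of 0.05. Called genes of both directions lie along the whole window under heat, while at 28 °C 2 of the 4 called genes lie close together.

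A large fold difference between the lines under heat was in Os03g0687400 (27441058 to 27441804), which encodes a ribosome-inactivating protein, an RNA glycosidase that disables ribosomes. It had 0.205, 0.373 and 0.206 CPM in HPS32 under heat, against 6.82, 8.36 and 6.40 CPM in HJX under heat. It was lower in every HPS32 library, 26.8-fold (log2 -4.75 ± 0.35, SE). At 28 °C it had no read in any of the 6 libraries. Of its 385 reads 370 were in HJX under heat, and it passed the low-count filter through that group. The line difference is therefore a description without a test. Against a floor of 3 reads per library, heat raised it at least 34.2-fold in HJX and at least 1.22-fold in HPS32.

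The gene lies in a stretch from 27427644 to 27582211, chosen after its values were seen, in which genes of both signs stood close together. The unannotated transcripts from 27427644 and 27429222 were both higher in HPS32 under heat, each with a log2 fold change of 2.49 (SE 0.72 and 0.59). For the first the edgeR adjusted p was 0.00836. The second had 0.769, 0.906 and 0.722 CPM in HPS32 under heat, against 0.120, 0.250 and 0.0524 CPM in HJX under heat. It passed the low-count filter through the HPS32 libraries, so its difference is a description without a test. The unannotated transcript from 27442342, beside the ribosome-inactivating gene, had 2 reads in HPS32 under heat and 48 in HJX under heat, a ratio of 0.0375 (exact 95% interval 0.00442 to 0.143, counting error only). It passed the low-count filter through the HJX heat libraries, so this ratio too is a description without a test. Neither it nor the ribosome-inactivating gene had a read at 28 °C.

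Further along came the NB-ARC gene Os03g0689400, a second NB-ARC gene and a gene without a described domain. Os03g0689688, the second NB-ARC gene, had 4.57, 2.83 and 3.81 CPM in HPS32 under heat, against 2.75, 2.25 and 1.99 CPM in HJX under heat. Its call was marginal (log2 0.68 ± 0.27, SE, edgeR adjusted p = 0.0488). Without HJX heat library 1, 2 or 3 its adjusted p was 0.0502, 0.0991 and 0.16, and without the filter 0.0541. Os03g0689833 had 2.98, 3.04 and 1.91 CPM in HPS32 under heat, against 1.02, 0.686 and 0.944 CPM in HJX under heat, which did not overlap (log2 1.57 ± 0.32, SE, edgeR adjusted p = 0.000533). The stretch ends with the dioxygenase gene Os03g0690500, lower in HPS32.

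Os03g0701200 (28143097 to 28146251), a protein-coding gene without a described domain, was lower in HPS32 under heat. It had 141, 132 and 127 CPM in HPS32 under heat, against 849, 889 and 753 CPM in HJX under heat. At 28 °C it had 251, 217 and 308 CPM in HPS32 and 290, 278 and 311 CPM in HJX, and these groups overlapped. The difference under heat was 6.24-fold (log2 -2.64 ± 0.11, SE, edgeR adjusted p = 2.03e-12).

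Os03g0726500, the TauE/SafE gene, had 278, 296 and 270 CPM in HPS32 under heat, against 815, 789 and 759 CPM in HJX under heat. It was 2.80-fold lower in HPS32 (log2 -1.49 ± 0.08, SE, edgeR adjusted p = 1.43e-11), while at 28 °C both lines had 235 to 274 CPM. Os03g0712800, a glutamine synthetase gene, whose enzyme fixes ammonium into glutamine, had 17.0, 23.1 and 18.8 CPM in HPS32 under heat. HJX under heat had 68.3, 51.8 and 53.8 CPM of it, and the groups did not overlap (log2 -1.56 ± 0.23, SE, edgeR adjusted p = 0.000254).

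The lipoxygenase Os03g0700700 had 110, 109 and 116 CPM in HPS32 under heat, against 261, 261 and 246 CPM in HJX under heat. It was 2.29-fold lower in HPS32 (log2 -1.20 ± 0.08, SE, edgeR adjusted p = 1.51e-09). A second lipoxygenase of the window, Os03g0699700, differed in the other direction, with 8.26, 9.70 and 8.19 CPM in HPS32 under heat, against 4.78, 5.24 and 5.56 CPM in HJX under heat (log2 0.74 ± 0.18, SE, edgeR adjusted p = 0.00184). The remaining one tested, Os03g0700400, was not called (log2 0.16 ± 0.18, SE, edgeR adjusted p = 0.506). All 3 overlap a row on the opposite strand.

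The other members among the 12 lowest in HPS32 under heat, again of those whose log2 CPM averaged at least 1, had log2 fold changes of -1.52 to -1.08. They were the unannotated transcript from 28374372 (-1.52), the F-box gene Os03g0727800 (-1.33), the dioxygenase gene and Os03g0701100 (-1.18), whose Prp18 domain is known from pre-mRNA splicing. With them came Os03g0685300 with a glutamine amidotransferase domain (-1.15), Os03g0701600 without a described domain (-1.15) and Os03g0713000 (-1.08), whose domains are those of threonine dehydratase, an enzyme of isoleucine synthesis.

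Among the 12 highest in HPS32 under heat of the members whose log2 CPM averaged at least 1, the NB-ARC gene led, and the rest had log2 fold changes of 0.85 to 1.44. Os03g0713200, without a described domain and overlapping another gene, had 10.2, 11 and 11.5 CPM in HPS32 under heat, against 3.29, 5.18 and 3.67 CPM in HJX under heat (log2 1.44 ± 0.15, SE, edgeR adjusted p = 2.34e-07). Os03g0703300, also without a described domain, had 6.46, 6.18 and 4.59 CPM in HPS32 under heat, against 2.87, 2.25 and 1.84 CPM in HJX under heat, levels far below its 91.2 to 127 CPM at 28 °C. Os03g0680700 (log2 1.28) encodes a homeodomain protein, Os03g0719000 (1.20) a microtubule-bundling protein of the MAP65 family and Os03g0721300 (1.18) a protein with a vacuolar sorting domain.

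Os03g0731100, which encodes subunit N of photosystem I, had 10.1, 9.22 and 9.02 CPM in HPS32 under heat, against 4.24, 3.87 and 4.77 CPM in HJX under heat (log2 1.13 ± 0.14, SE, edgeR adjusted p = 2.23e-06). The summed chlorophyll a/b-binding transcripts given above were also higher in HPS32 under heat, and their part in the result was not tested. The list of the highest ends with Os03g0684700 of the HPP family (1.15), Os03g0691500 (0.99), Os03g0692400 (0.93), Os03g0685100 with an rRNA methylase domain (0.92) and Os03g0685000 with an iron-sulfur domain (0.85). Os03g0691500 lost its call without HJX heat library 3 (adjusted p = 0.0573) or without HPS32 heat library 3 (adjusted p = 0.122).

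**Figure D3:**
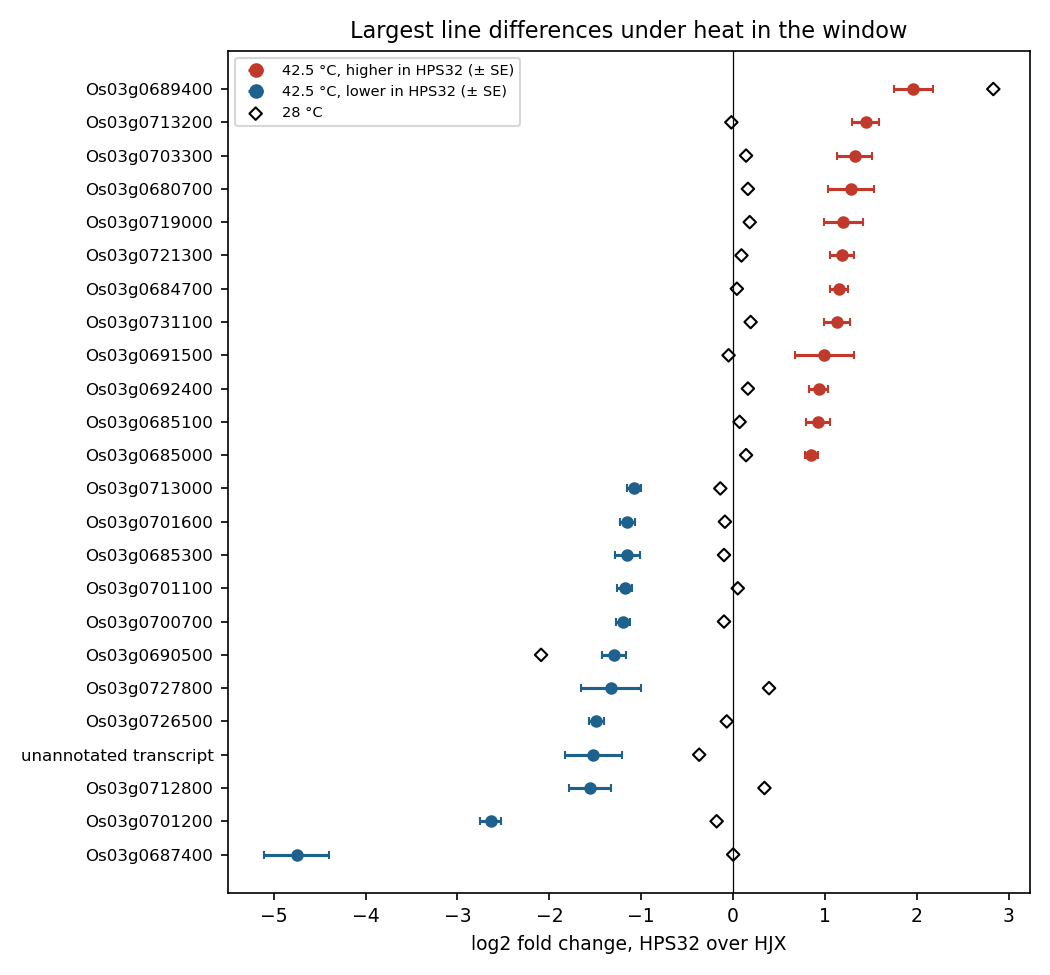
Log2 fold change of HPS32 over HJX for the 12 highest and 12 lowest members under heat whose log2 CPM averaged at least 1, with filled points ± SE, and the same value at 28 °C as open diamonds. Only the NB-ARC gene Os03g0689400 and the dioxygenase gene Os03g0690500 lie far from 0 at 28 °C as well. For the ribosome-inactivating gene Os03g0687400 the diamond at 0 stands for no reads in either line.

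Grouped by domain, the members with kinase or receptor domains were more often called lower than higher in HPS32 under heat. Of 19 tested (25 in all) 13 were lower and 1 higher, where 23.6% of all tested genes were lower and 21.6% higher, with a median log2 fold change of -0.38, against -0.11 for all members and 0.03 for all genes. Scaled by total counts 7 were lower and 3 higher (median -0.13, against 0.28 for all genes), so the number called depended on the scaling. The largest fall was in Os03g0726200, an inositol trisphosphate 5/6-kinase gene of inositol phosphate metabolism, with 30.5, 32.6 and 31.0 CPM in HPS32 under heat, against 60.9, 61.5 and 61.4 CPM in HJX under heat (log2 -0.97 ± 0.09, SE, edgeR adjusted p = 3.32e-08). The exception was Os03g0705300, a phosphatidylinositol phosphate 5-kinase gene (log2 0.25 ± 0.08, SE, edgeR adjusted p = 0.013), whose call was lost without HJX heat library 1 (adjusted p = 0.0654). Os03g0719800, with the domains of a phytochrome, a red-light receptor, was not called (log2 0.22 ± 0.13, SE, edgeR adjusted p = 0.169), but was when scaled by total counts (log2 0.48, adjusted p = 0.0047).

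Transcription factors were divided. Of 16 tested members 4 were higher and 4 lower (21.6% and 23.6% of all tested genes), with a median of 0.28, against 8 higher and 1 lower when scaled by total counts. A neighbouring pair of homeodomain genes of the same domain type moved in opposite directions: Os03g0680700 was higher as given above, and Os03g0680800 had 284, 273 and 272 CPM in HPS32 under heat, against 480, 482 and 467 CPM in HJX under heat (log2 -0.79 ± 0.07, SE, edgeR adjusted p = 2.57e-08). The DELLA gene Os03g0707600, named after its values were seen, had 264, 273 and 296 CPM in HPS32 under heat, against 219, 214 and 215 CPM in HJX under heat (log2 0.36 ± 0.07, SE, edgeR adjusted p = 0.00039). Os03g0690600, a GRAS-family gene next to the dioxygenase gene, was lower (log2 -0.28 ± 0.07, SE, edgeR adjusted p = 0.00166), but not when scaled by total counts (adjusted p = 0.785).

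Of 13 tested genes for proteolysis and ubiquitin, 6 were lower and 2 higher, against 23.6% and 21.6% of all tested genes (median -0.12, but 0.14 when scaled by total counts). The F-box gene Os03g0727800 was the lowest of them. Of the highest, Os03g0730500, a serine carboxypeptidase gene that overlaps another gene, stood near the threshold (log2 0.56 ± 0.20, SE, edgeR adjusted p = 0.0482). Its call was lost in 11 of 19 alternative settings, the replicate block at 28 °C (edgeR adjusted p = 0.0663) among them. Among the 3 NB-ARC genes tested, 2 were higher. The third, Os03g0709200, had a log2 fold change of 0.44 ± 0.25 (SE, edgeR adjusted p = 0.153), or 0.70 when scaled by total counts (adjusted p = 0.023).

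The smaller groups held 1 to 14 tested members each, and their counts stand against 21.6% higher and 23.6% lower among all tested genes. Of 5 genes for ribosomal proteins and translation 3 were higher and none lower under heat, led by Os03g0704000, a ribosomal S13/S18 gene, with 126, 129 and 131 CPM in HPS32, against 74.1, 84.3 and 78.4 CPM in HJX (log2 0.70 ± 0.07, SE, edgeR adjusted p = 1.23e-07). Of 3 cell-wall genes, 2 were higher and none lower, both glycosyl hydrolases of family 1. Of 9 transporter genes 2 were higher and 3 lower, of 7 genes for RNA binding and PPR proteins 2 were higher and 3 lower, and of 6 genes of lipid metabolism 1 was higher and 2 lower. Of 14 unannotated transcripts 2 were higher and 4 lower, and of 2 chaperone genes 1 was lower. Under total counts these became 2 higher and 1 lower for transporters, 3 and 0 for RNA binding, 2 and 2 for lipids, and 4 and 3 for unannotated transcripts. The only tested member with a photosynthesis domain was the photosystem I gene, and no member had a cytochrome P450 domain.

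**Figure D4:**
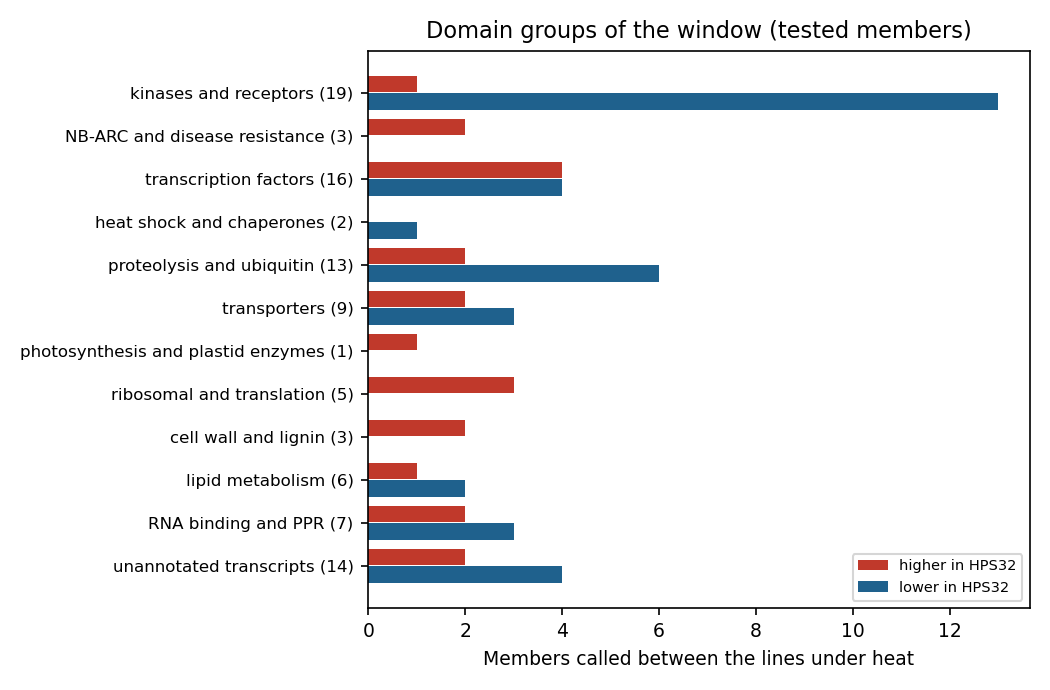
Number of tested members called higher (upper bar of each pair) and lower (lower bar) in HPS32 than in HJX under heat, by domain group, with the number tested in brackets. Kinases and receptors stand out by 13 lower and 1 higher, a split that scaling by total counts reduced to 7 and 3.

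Along the window, stretches of 250 kb held 14 to 38 tested members each. Their median log2 fold changes under heat ran from -0.29 to 0.38, most of them below 0. Over all tested genes 45.2% were called, 21.6% higher and 23.6% lower. Scaled by total counts the median of all members moved from -0.11 to 0.15, so the sign of a stretch's median may depend on the scaling. From 27500000 to 27750000, the stretch with the NB-ARC and dioxygenase genes, 7 of 16 tested members were higher and 5 lower in HPS32 under heat, with a median of 0.38. From 28250000 to 28500000, 11 of 18 were lower and 5 higher, with a median of -0.29 and the highest share called, 88.9%. The lowest share, 28%, was from 29000000 to 29250000, with 3 of 25 higher and 4 lower. The neighbouring windows of 3 Mb had 45.6% called before it and 48.8% after it, and the 3 Mb around TT2 had 51.3%.

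Heat itself changed most members in both lines. In HPS32 203 of 281 were called between heat and 28 °C (72.2%, against 70.4% of all tested genes), 95 higher and 108 lower under heat (34% and 36.4% of all tested genes). In HJX 228 were called (81.1%, against 74.9% of all tested genes), 125 higher and 103 lower (38.1% and 36.8% of all tested genes). At 2-fold or more 98 members changed in HPS32 (36.3% of all tested genes did) and 111 in HJX (42.4% of all tested genes did). Scaled by total counts, HPS32 had 160 higher and 62 lower and HJX 149 higher and 79 lower, with the median of all genes at 0.54 and 0.32. In both lines 84 members rose and 87 fell (29.9% and 31%, against 28.4% and 29.9% of all tested genes). A further 11 fell in HPS32 and rose in HJX, and 1 did the reverse, 4.27% of the tested members against 2.05% of all genes, and under total counts 8 members were called in opposite directions.

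The members that rose most included an Hsp70 gene, Os03g0710500, a chaperone gene that was almost silent at 28 °C. It had 1.33, 1.97 and 2.68 CPM in HPS32 under heat, against 0.220, 0 and 0.0704 CPM in HPS32 at 28 °C (log2 4.28 ± 0.61, SE). HJX had 2.57, 3.62 and 3.30 CPM under heat, against 0.0728, 0.196 and 0 CPM at 28 °C (log2 4.98 ± 0.58, SE). This Hsp70 gene passed the low-count filter through the heat libraries, so its rise is a description without a test. The other chaperone gene, Os03g0728100 with a DnaJ domain, had 28.6, 30.4 and 26.5 CPM in HPS32 under heat, against 32.1, 33.5 and 38.7 CPM at 28 °C. Its fall in HPS32 (log2 -0.29) turned to a rise of 0.28 under total counts and did not pass with the replicate block (edgeR adjusted p = 0.0713), and in HJX it rose by 0.23, a call lost without HJX heat library 1 (adjusted p = 0.115).

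The NB-ARC gene Os03g0709200 had 4.62, 5.65 and 3.66 CPM in HPS32 under heat, against 0.659, 0.641 and 0.423 CPM in HPS32 at 28 °C, an 8-fold rise (log2 3 ± 0.32, SE). In HJX it rose 6.26-fold. It too passed the low-count filter through the heat libraries, so both rises are a description without a test. The first NB-ARC gene, Os03g0689400, also rose in both lines, with log2 fold changes of 0.68 ± 0.20 in HPS32 and 1.54 ± 0.27 in HJX (SE, edgeR adjusted p = 0.00637 and 7.9e-05). The WD-repeat gene Os03g0725400 rose by 2.77 in HPS32 and 2.40 in HJX on the log2 scale, and the PPR gene Os03g0712900, of a family that processes organelle RNA, by 2.13 in HPS32 and 2.87 in HJX.

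The lipoxygenases responded in different directions. Os03g0700700 had 110, 109 and 116 CPM in HPS32 under heat, against 25.5, 25.6 and 22.0 CPM in HPS32 at 28 °C, a 4.57-fold rise, and rose 9.76-fold in HJX (edgeR adjusted p = 8.34e-14 and 2.09e-16). Os03g0699700 rose by 2.13 in HPS32 and 1.57 in HJX on the log2 scale. Os03g0700400 had 7.13, 5.86 and 5.77 CPM in HPS32 under heat, against 18.6, 23.9 and 23.8 CPM in HPS32 at 28 °C, and fell in both lines (log2 -1.82 ± 0.17 in HPS32 and -2.10 ± 0.17 in HJX, SE, edgeR adjusted p = 1.51e-08 and 1.89e-09).

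The members that fell most in both lines included an aminotransferase gene, Os03g0727600, with 0.154, 0.373 and 0 CPM in HPS32 under heat, against 12.0, 4.56 and 4.37 CPM in HPS32 at 28 °C. HJX had 0.0598, 0.187 and 0.105 CPM of it under heat, against 10.9, 5.68 and 3.40 CPM at 28 °C. This gene passed the low-count filter through the 28 °C libraries, so both falls are a description without a test. A neighbouring pair of cupin genes, a family that includes germin-like and storage proteins, fell together: Os03g0693900 by log2 -3.23 in HPS32 and -2.81 in HJX, and Os03g0694000 by -2.99 in HPS32 and -3.46 in HJX. Os03g0703300 fell 20.9-fold in HPS32 and 47.1-fold in HJX.

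The photosystem I gene Os03g0731100 had 10.1, 9.22 and 9.02 CPM in HPS32 under heat, against 36.0, 32.5 and 40.9 CPM in HPS32 at 28 °C (log2 -1.95 ± 0.12, SE, edgeR adjusted p = 3.74e-11), and fell by 2.89 in HJX. Os03g0731900 has the LytB domain of the last enzyme of the plastid isoprenoid pathway, and it fell by 2.03 in HPS32 and 2.22 in HJX on the log2 scale. A peroxiredoxin-like gene with an AhpC/TSA domain, Os03g0729300, fell by 2 in HPS32 and 1.46 in HJX. The summed chlorophyll a/b-binding transcripts given above fell with heat in both lines too, and the part of green-tissue content in these falls was not tested.

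Among the regulators, the CCT-motif gene Os03g0711100, of a domain known from light and flowering-time regulators, fell by 2.12 in HPS32 and 2.02 in HJX. The zinc-finger gene Os03g0712100 had 0.154, 0 and 0.361 CPM in HPS32 under heat, against 3.81, 1.92 and 2.47 CPM in HPS32 at 28 °C, and was likewise near 0 in HJX under heat. It passed the low-count filter through the 28 °C libraries, so its falls are a description without a test. The PHD-finger gene Os03g0716200, with a domain that reads histone marks, rose by 2.05 in HPS32 and 2.27 in HJX. The DELLA gene Os03g0707600 fell by 0.36 in HPS32 and 0.82 in HJX, but under total counts it was 0.21 higher under heat in HPS32. The KNOX gene Os03g0727000 had 1 read in HJX under heat, against 72 in HJX at 28 °C, a ratio of 0.0115 (exact 95% interval 0.000287 to 0.066, counting error only). Those 72 of its 77 reads are values that chose the window, so this ratio is a description without a test.

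The difference of the 2 heat responses, HPS32 minus HJX, contains the 28 °C difference that chose the window and is therefore given as a description. It passed an adjusted p of 0.05 in 93 members (33.1%, against 29.3% of all tested genes), 28 positive and 65 negative (13.3% and 16% of all tested genes), against 68 positive and 32 negative under total counts. At 2-fold or more it was 23 members (8.28% of all tested genes). Os03g0701200 had the most negative value among the called members, -2.46: it fell by 0.96 in HPS32 and rose by 1.5 in HJX on the log2 scale. Os03g0689100, a histidine phosphatase gene, likewise fell by 0.38 in HPS32 and rose by 0.98 in HJX, and under total counts it rose by 0.18 in HPS32. The HECT-domain ubiquitin ligase gene Os03g0683866, named after its values were seen, fell by 0.29 in HPS32, or rose by 0.27 under total counts, and rose by 0.53 in HJX. The TauE/SafE gene Os03g0726500 rose by 0.17 in HPS32 and by 1.59 in HJX. Its call in HPS32 was lost in 8 of 19 alternative settings, the fit without the filter (edgeR adjusted p = 0.0595) among them.

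Some positive values came from genes that fell less in HPS32. The gene with the vacuolar sorting domain, Os03g0721300, fell by 0.95 in HPS32 and 2.04 in HJX, and Os03g0713200 by 0.67 in HPS32 and 2.12 in HJX, where total counts left the fall in HPS32 uncalled (adjusted p = 0.491). The PPR gene Os03g0728200 rose by 1.57 in HPS32 and had a log2 change of 0.41 in HJX (edgeR adjusted p = 0.0479), a call lost in 15 of 19 alternative settings, DESeq2 and the replicate block (adjusted p = 0.0688) among them. Os03g0709100, a plastocyanin-like gene named after its values were seen, had 0.872, 0.426 and 0.567 CPM in HPS32 under heat and 0.120, 0.0624 and 0.367 CPM in HJX under heat. At 28 °C it had 1.03, 0.570 and 0.634 CPM in HPS32 and 1.67, 1.83 and 2.02 CPM in HJX, so that HJX under heat had the lowest level of the 4 groups.

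**Figure D5:**
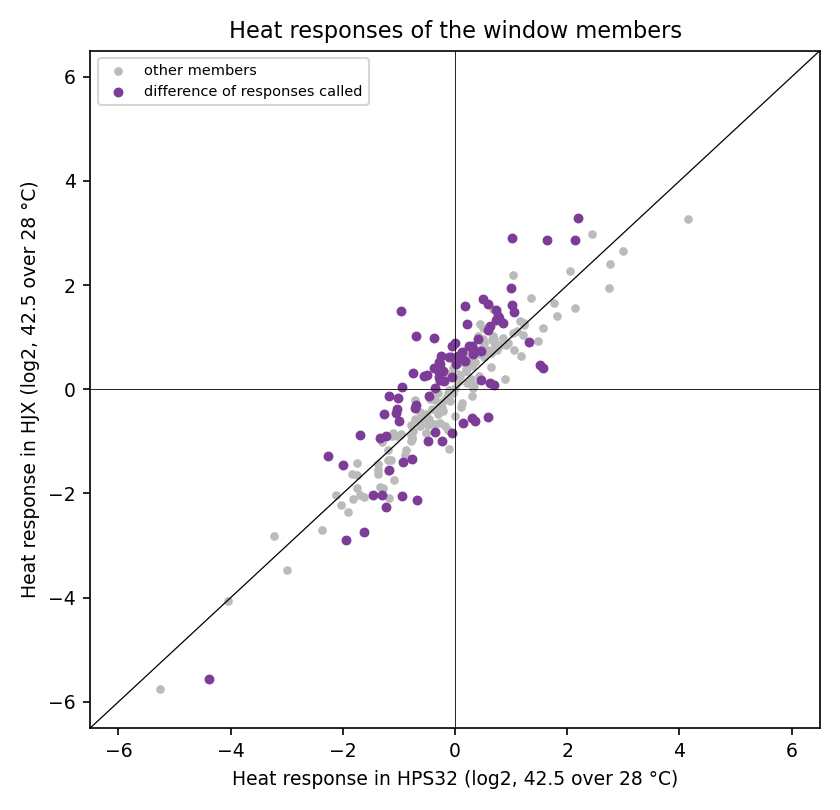
Log2 response to heat (42.5 over 28 °C) in HPS32 on the horizontal axis and in HJX on the vertical axis, for 240 of the 241 members whose log2 CPM averaged at least 1 (1 lies beyond the axes). Purple points had a difference of responses with an adjusted p under 0.05, and the diagonal marks equal responses. Most points follow the diagonal, and the purple points above it outnumber those below, as the 65 negative against 28 positive values over all tested members do.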

How the data were processed

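The 12 libraries form 4 groups of 3. Per the submitters' processing notes, reads were handled with HISAT2 2.0.5, featureCounts 1.5.0-p3 and DESeq2 1.20.0. The table the authors deposited holds raw read counts per gene and library, on which all tests rest. Its 12 further columns of FPKM per library were not used, and levels per gene length are CPM divided by the deposited gene length in kilobases. Coordinates are as the deposited table gives them, and the genome build is not given in the sources used here. Gene descriptions are its protein domains, and no identifier matched the available RefSeq gene table. Columns of heat-treated libraries could be tied to a group but not to a sample title, and are called heat libraries 1 to 3.

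Tests were run with edgeR 4.0.16 in R 4.3.3: filterByExpr, TMM scaling, 1 robust quasi-likelihood model over 12 libraries, two-sided tests adjusted by Benjamini-Hochberg over all 25473 genes at 0.05. An SE is the log2 fold change divided by the square root of F. There were 5 comparisons: the lines under heat, the lines at 28 °C, heat in each line, and the difference of the heat responses. Levels are CPM with TMM scaling. The settings varied were the scaling (RLE, total counts), the filter (none, or CPM of at least 1 in 3 libraries), the tool (DESeq2 1.42.0), the groups fitted, a 2-fold threshold, a wider window, each library left out, and a replicate block. The scripts were tested on simulated data.

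The labels number both lines at 28 °C from 1 to 3. Deviations of same-numbered libraries correlated at r = 0.426, 0.113 and 0.403 over genes whose log2 CPM averaged at least 1, so the numbers were taken to pair these libraries. Libraries of different numbers gave r from -0.431 to 0.0748, so the pair numbered 2 hardly stood apart. The main fit did not use the pairing, which entered only as the replicate block. The pairing rests on these correlations alone, since the labels give numbers only. Over all tested genes r of the same-numbered libraries was 0.289, 0.0756 and 0.275.

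The window, the domain lists and the named genes were chosen with earlier results of these data known. The named genes are, among members whose log2 CPM averaged at least 1, the 12 highest and 12 lowest called members with no overlap between groups under heat, the 8 highest and 8 lowest with a domain for heat in each line, and the 6 extremes each way for the difference of responses, and beside these the extremes of each list and the genes at the edges. A gene without a read in 1 group has a lower bound against 3 reads per library.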

Additional observations from a re-analysis of the deposited data

Results flagged for a closer look

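Among 44 genes named for their heat response, 19 had a response that differed between the lines in the test of the difference itself (edgeR's quasi-likelihood test with Benjamini-Hochberg adjustment). Of all tested members 33.1% did, and of all tested genes 29.3%. The 44 were named as extremes of the heat response in 1 of the lines, among all members or within a domain list. That difference contains the 28 °C comparison by which the window was chosen. For both reasons the count is a description, and nothing is read from it against these shares. All values are log2 differences, HPS32 minus HJX. Groups of 3 libraries are too small for a test of single outlying libraries.

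The negative ones had a log2 response that was lower in HPS32 than in HJX: a smaller rise, a larger fall, or a fall against a rise. They were the glutamine synthetase gene Os03g0712800 (-1.9), the F-box gene Os03g0727800 (-1.72), the lipoxygenase Os03g0700700 (-1.09), the kinase gene Os03g0711300 (-1.05), the inositol trisphosphate kinase gene Os03g0726200 (-0.96), the threonine dehydratase-type gene Os03g0713000 (-0.94) and the PPR gene Os03g0712900 (-0.74). Smaller values belonged to the peroxiredoxin-like gene Os03g0729300 (-0.54), the DnaJ gene Os03g0728100 (-0.52), the ubiquitin-conjugating enzyme gene Os03g0681400 (-0.36) and the GRAS gene Os03g0690600 (-0.27). These last 4 did not pass when libraries were scaled by total counts (adjusted p = 0.0781, 0.131, 0.571 and 0.971). In all, Os03g0690600 lost its call in 13 of 18 alternative settings, RLE scaling (edgeR adjusted p = 0.0809) and DESeq2 (adjusted p = 0.087) among them. Os03g0681400 lost it in 5 of 18, DESeq2 (adjusted p = 0.0565) among them. Os03g0726200 and Os03g0729300 fell in both lines. Their log2 responses were -2.26 and -2 in HPS32, against -1.29 and -1.46 in HJX.

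The positive ones had a log2 response that was higher in HPS32 than in HJX: a larger rise, a smaller fall, or a rise against a fall. They were the homeodomain gene Os03g0680700 (1.12), the HPP gene Os03g0684700 (1.11), the MAP65 gene Os03g0719000 (1.02), the SNF2-type helicase gene Os03g0722400 (0.97), the photosystem I gene Os03g0731100 (0.94), the glycosyl hydrolase genes Os03g0703100 (0.77) and Os03g0703000 (0.5) and the ribosomal gene Os03g0704000 (0.57). The value of Os03g0680700 lost its call in 7 of 18 alternative settings, each a fit without 1 library (edgeR adjusted p = 0.0527 to 0.0988). With the replicate block its heat response in HPS32 did not pass (adjusted p = 0.385). Os03g0684700, Os03g0719000, Os03g0731100 and Os03g0704000 fell in both lines. Their log2 responses were -1.63, -1.24, -1.95 and -1.47 in HPS32, against -2.74, -2.26, -2.89 and -2.03 in HJX.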

How the results depend on the processing

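The counts of members called kept within 1.5 times of those reported under RLE and total-count scaling, both filters, DESeq2, the wider window and the replicate block, with the exceptions given here. With 2-fold as an added condition 29 members were called between the lines under heat, 98 for heat in HPS32, 111 for heat in HJX and 23 for the difference of responses. Fitted on the compared groups alone, 2 members were called at 28 °C, and 1 of them also under heat in the same direction. With each library left out in turn, the counts ranged over 2 to 4 for the lines at 28 °C, 121 to 150 for the lines under heat, 186 to 205 for heat in HPS32, 219 to 232 for heat in HJX, 82 to 96 for the difference of responses and 2 to 3 for members called at both temperatures.

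With the replicate block at 28 °C, 4 members were called at 28 °C, 152 between the lines under heat, 189 for heat in HPS32, 221 for heat in HJX and 99 for the difference of responses. Where it changed the call of a result stated above, its value stands there, and it changed no other stated call.

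Scaling by total counts turned the sign of some heat responses among the named genes, since it moved the median of all genes up. In HPS32 these were Os03g0680800 (0.01), Os03g0683866 (0.27), Os03g0689100 (0.18), Os03g0690500 (0.51), Os03g0692400 (0.33), Os03g0705300 (0.26), Os03g0707600 (0.21), Os03g0722100 (0.28), Os03g0722500 (0.04) and Os03g0728100 (0.28). In HJX it was Os03g0722100 (0.01). Among the named genes, scaling by total counts also ended the line difference under heat of Os03g0681400, Os03g0690600, Os03g0712900 and Os03g0722100. At the depth of these libraries, members with a few reads, such as the KNOX genes, have wide counting error.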

Other observations

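The window holds 7 rows with a ribosome-inactivating domain, of which 1 was abundant enough to test. Of the other rows, Os03g0688000 had 11 reads in HPS32 under heat and 52 in HJX under heat, against 11 in HPS32 and 1 in HJX at 28 °C, summed over 3 libraries. Os03g0687700 had 7 reads in HPS32 under heat and 27 in HJX under heat, against 3 in HPS32 and 4 in HJX at 28 °C. Os03g0688600 had 3 reads, all in HJX under heat, and the remaining 3 rows had none. These counts were too low to test.

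Among other members below the filter, Os03g0726700, with the domain of epidermal patterning factors, small peptides that space stomata, had 27 reads in HPS32 under heat and 6 in HJX under heat, against 12 in HPS32 and 7 in HJX at 28 °C. The cupin row Os03g0693700, next to the cupin genes that fell with heat, had 2 reads in HPS32 under heat and 5 in HJX under heat, against 24 in HPS32 and 16 in HJX at 28 °C. Genes of 2 domain types stayed almost or wholly unread: the 5 rows with a UDP-glucosyltransferase domain had at most 8 reads each over all libraries, and the 2 rows of the TCP family had none.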
